A study of Mus musculus with 7 samples.

Results

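Mitosis and G2/M genes are the genes that cells switch on as they leave DNA replication and divide. A list of 41 of them was followed here in thymic T cells, of the 18193 genes that the arrays measure with a probe set of their own. Each gene was represented by its brightest probe set, and 40 of the 41 could be measured. All 40 reached an intensity of 82, the filter on dim genes, in 2 or more arrays. Ccnb1, the cyclin B1 gene, had no probe set naming it alone and was not analysed here. The rule lists the members by name. Their intensities entered only through the choice of probe set and the filter.

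The cells came from the thymus of C57BL/6J mice aged 4 to 6 weeks. Stage 1 natural killer T (NKT) cells, an early step of a lineage that recognises lipids on CD1d, were taken from Valpha14 TCR transgenic mice (n = 2). Luxoid stage 1 NKT cells came from mice with the same transgene and the Luxoid mutation of Zbtb16, described as deficient in its product PLZF (n = 3). CD4 single-positive (CD4SP) thymocytes, which are conventional T cells, came from wild-type mice without the transgene (n = 2). Both NKT groups were sorted as CD1d tetramer+, CD24low, CD44- and NK1.1-, and CD4SP as CD4+ CD8-. On the CD4SP samples 1 label gives the NKT sort instead, and their titles, sources and descriptions were followed. Every sample pooled several mice, and the transgene supplies a ready NKT receptor chain, so the NKT cells are not those of an unmanipulated thymus. CD4SP cells differ from both NKT groups in lineage, in the transgene and in the sort, and these cannot be told apart.

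A dividing cell builds up cyclins A and B, which switch on the kinase CDK1 and start mitosis. Chromosomes then attach to the spindle at their kinetochores, a checkpoint holds the cell until all are attached, and the anaphase-promoting complex ends the arrest by having securin and cyclin B destroyed. Most of these genes are silent in resting cells, where the DREAM complex holds them down, and they are switched on by B-MYB and FOXM1. In the thymus, precursors divide vigorously before T cell receptor selection, mature CD4 thymocytes divide little, and early NKT cells are known to pass through a burst of division.

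The DREAM and B-MYB complexes reach these promoters through a short element, the cell cycle genes homology region (CHR, letters TTTGAA), often with CCAAT boxes of the factor NF-Y nearby. RefSeq promoter windows of the GRCm38.p6 build, 250 bases before to 50 after a start, were found for 35 of the 41 members. The windows of Cdk1, Cdc20 and Ube2c are shown as examples of windows whose last 150 bases before the start hold both motifs, in genes called higher in both NKT groups. They run from chr10:69352913-69353062 (minus strand), chr4:118437344-118437493 (minus strand) and chr2:164769779-164769928 (plus strand), each read 5′ to 3′ towards the gene and ending at the base before its start. Capitals mark TTTGAA and CCAAT, or their complements TTCAAA and ATTGG.
Cdk1: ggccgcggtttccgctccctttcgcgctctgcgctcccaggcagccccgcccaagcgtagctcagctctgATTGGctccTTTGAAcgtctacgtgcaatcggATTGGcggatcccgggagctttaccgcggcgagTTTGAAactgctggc
Cdc20: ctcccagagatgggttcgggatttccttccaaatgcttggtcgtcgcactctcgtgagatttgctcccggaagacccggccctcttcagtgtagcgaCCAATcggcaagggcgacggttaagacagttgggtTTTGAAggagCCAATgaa
Ube2c: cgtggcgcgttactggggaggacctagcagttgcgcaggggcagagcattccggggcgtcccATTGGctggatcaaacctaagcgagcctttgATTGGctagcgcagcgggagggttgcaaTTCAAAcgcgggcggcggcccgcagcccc
Relative to the start, the Cdk1 window holds TTTGAA at positions -71 and -15, the Cdc20 window at -18, and the Ube2c window at -29 on the other strand.

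Across the members, TTTGAA on either strand occurred in the window of 26 of 35 (74.3%, Wilson 95% interval 57.9% to 85.8%, counting error only), compared with 14.2% of the 8861 tested genes with a window and 20.2% of all 27025 genes. CCAAT occurred in 26 of 35 as well (74.3%, against 42.9% of tested genes), and both motifs in 23 (65.7%, against 5.78%). The motifs do not contain each other, and 1 pair of sites overlapped by some bases. Counting a site shared by 2 windows of a gene once, at its nearest start, the members held 33 TTTGAA sites. Of these, 24 lay within 50 bases of the start (72.7%, against 24.6% of the 1446 sites in tested genes), and 16 lay after it. In the 250 bases before the start alone, 13 of 35 members held TTTGAA (37.1%, against 12.8% of tested genes). The windows of Ccnb1, Bub1, Birc5, Cenpe, Nusap1, Nuf2, Cit, Knstrn and Mad2l1 had no TTTGAA, which says only that these letters are not in this stretch.

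The arrays were first checked against their labels. Array medians lay at 79.6 to 83.7, and the arrays are numbered by the biological replicate in their labels. Zbtb16 read 2751 and 3488 in stage 1 NKT, 1857, 2774 and 2645 in Luxoid, and 87.3 and 61.8 in CD4SP, so its transcript was still measured in Luxoid cells, and its RNA level does not check the Luxoid label. Cd4 read 1888 to 2360 in the 5 NKT arrays and 5824 and 6754 in CD4SP. Cd24a read 14.1 to 57.1 in the NKT arrays and 246 and 239 in CD4SP, and Cd44 was at 180 to 310 throughout. Over all genes, arrays of 1 group correlated at 0.984 to 0.992, arrays of the NKT groups with each other at 0.981 to 0.992, and either with CD4SP at 0.968 to 0.979.

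Mitosis genes were higher in stage 1 NKT than in CD4SP cells. Of 40 members, 33 were higher and 0 lower at an adjusted p under 0.05, by limma's moderated test with Benjamini-Hochberg adjustment over the 10874 genes tested. Over all of these genes 10.8% were called higher and 4.08% lower. The members' median log2 difference was 1.11, or 2.15-fold, and the median over all tested genes was 0.06. The 33 called members were 1.41-fold to 3.33-fold higher, and 24 of them were at least 2-fold higher. Cdk1, Ect2, Bub1, Ccnb2, Anln and Aurka stood at the top. Cenpa, Foxm1, Ttk, Kif23, Kif4, Prc1 and Kif2c did not pass the threshold.

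Luxoid stage 1 NKT cells stood above the same CD4SP arrays by about as much. Here 35 of 40 members were higher and 0 lower, where 11.3% of all tested genes were called higher and 5.51% lower. The median log2 difference of the members was 1.22, or 2.32-fold, against 0.02 over all tested genes. Called members were 1.38-fold to 3.83-fold higher, led by Ect2, Kif2c, Cdk1, Aurka, Cenpe and Ccnb2. Cenpa, Foxm1, Ttk, Kif23 and Kif4 did not pass. In 37 of 40 members, every NKT and Luxoid array read above both CD4SP arrays, which held for 21.4% of all tested genes; the exceptions were Cenpa, Ttk and Kif23. Both comparisons use the same 2 CD4SP arrays, so the 33 members called in both are not independent support.

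These counts rested on few arrays. Leaving out a stage 1 NKT or CD4SP array left 1 array in its group and fewer degrees of freedom for every gene. A call lost in such a fit does not by itself mark out that array. Without stage 1 NKT array 1, 12 members were called higher than in CD4SP, without stage 1 NKT array 2 there were 16, and without CD4SP array 2 there were 12. The calls over all genes fell at the same time, from 1177 to 454, 583 and 547. For Luxoid against CD4SP the count fell to 19 without CD4SP array 2, while that over all genes fell from 1232 to 633. The members' median differences were 0.90 and 1.02 without that array. Over all 18 fits, including those that left out 1 array, 10 members were called each time in stage 1 NKT: Ccnb2, Aurka, Aurkb, Birc5, Cdc20, Ube2c, Ect2, Cdca8, Hmmr and Mad2l1. In Luxoid 19 were, among them all of these except Hmmr.

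Centring each array on the median of the tested genes moved the balance of calls over all genes but less so that of the members. In stage 1 NKT against CD4SP the share of all calls that were higher went from 72.6% to 45.7%, and in Luxoid against CD4SP from 67.3% to 47.7%. Quantile normalization applied again gave 56.0% and 54.2%. With centring, 27 and 32 members were called higher, against 6.92% and 8.47% of all tested genes. Median centring shifted the median difference over all genes from 0.06 to -0.13 and from 0.02 to -0.11.

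**Figure D1:**
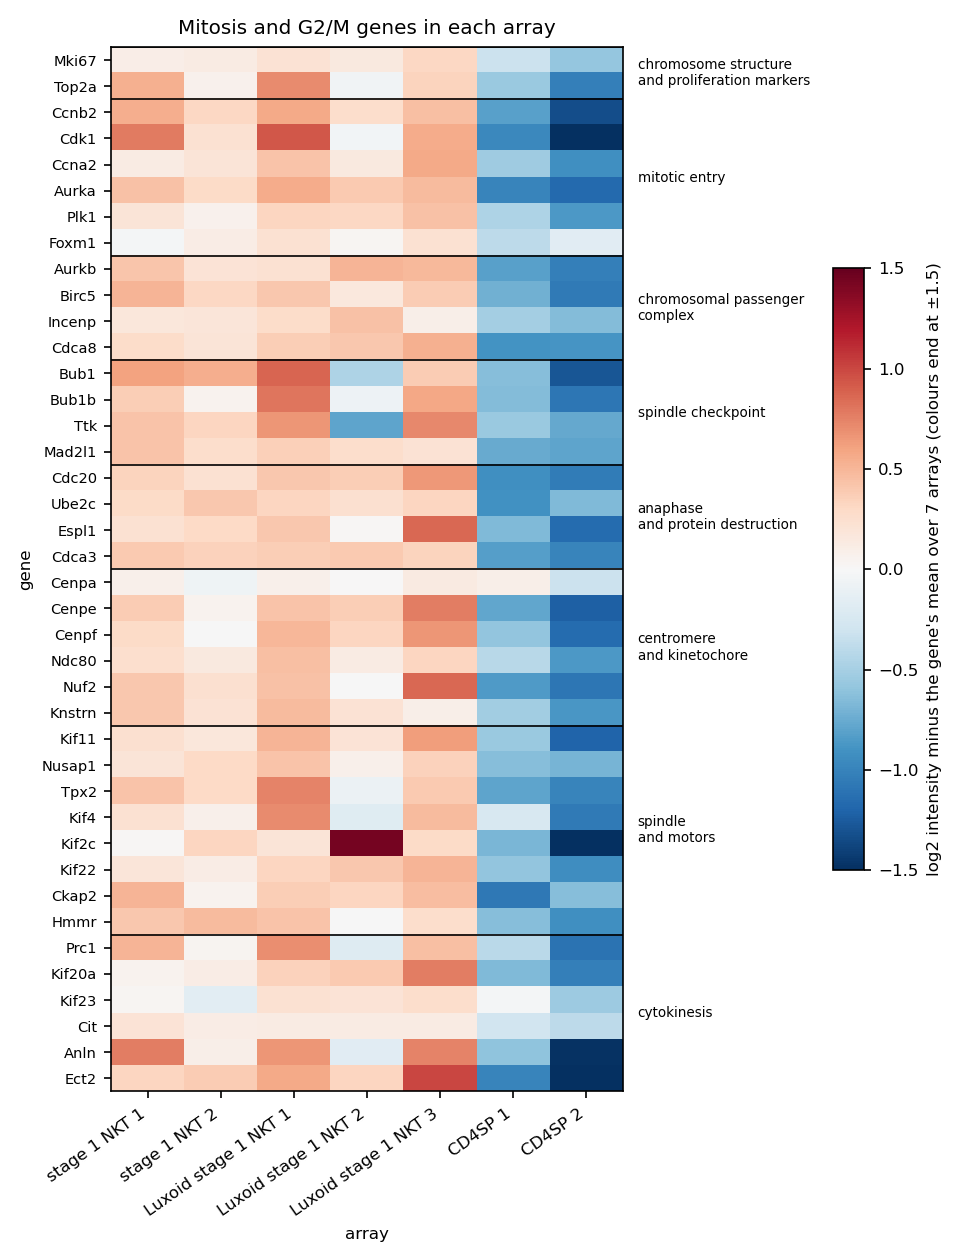
Each row is 1 of the 40 measured genes and each column 1 array; colour gives the log2 intensity minus the gene's mean over the 7 arrays, ending at ±1.5, with genes grouped by role. The CD4SP columns are blue in most rows, with a median deviation of -0.64 in array 1 and -1.01 in array 2, while the NKT and Luxoid columns are mostly red, with medians of 0.18 to 0.45.

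The proliferation marker Mki67 codes for the Ki-67 protein that coats mitotic chromosomes. Its probe set (1426817_at) read 6200 and 6297 in stage 1 NKT, 6732, 6426 and 7145 in Luxoid, and 4624 and 3879 in CD4SP. All 5 NKT arrays lay above both CD4SP arrays. The gene was 1.48-fold higher in stage 1 NKT (log2 difference 0.56 ± 0.15 SE, limma adjusted p = 0.0405) and 1.60-fold higher in Luxoid (0.67 ± 0.14, adjusted p = 0.0118). Leaving out single arrays gave adjusted p-values of 0.0426 to 0.214 for stage 1 NKT, with the call held only without Luxoid array 2, and up to 0.106 for Luxoid, without CD4SP array 2. Median centring also ended the stage 1 NKT call (adjusted p = 0.138). Top2a, the topoisomerase that untangles sister chromosomes, read 1943 and 1404, then 2194, 1293 and 1697, and 913 and 657 in CD4SP. Its differences of 1.09 ± 0.28 (adjusted p = 0.0332) and 1.12 ± 0.26 (adjusted p = 0.0184) were called. The calls were lost without CD4SP array 2 (adjusted p up to 0.214 and 0.165 over the arrays left out) and without Luxoid array 3, and that in stage 1 NKT also without either stage 1 NKT array or CD4SP array 1, and with median centring (0.0517).

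Of the genes for entry into mitosis, 5 of 6 measured were higher in each NKT group, with medians of 1.16 and 1.30. Cdk1, the kinase that drives mitotic entry, read 934 and 640 in stage 1 NKT, 1036, 528 and 803 in Luxoid, and 279 and 193 in CD4SP. The highest CD4SP array was still below the lowest NKT array. Cdk1 was 3.33-fold higher in stage 1 NKT (1.74 ± 0.33, adjusted p = 0.00964) and 3.28-fold higher in Luxoid (1.71 ± 0.30, adjusted p = 0.00564). Without CD4SP array 2 neither call held (adjusted p = 0.0712 in Luxoid), nor did that in stage 1 NKT without its array 1; the highest adjusted p there was 0.09. Ccnb2, cyclin B2, a partner of Cdk1, read 1039 and 888, then 1060, 859 and 977, and 406 and 285. It was 2.82-fold and 2.83-fold higher (1.50 ± 0.20, adjusted p = 0.00201, and 1.50 ± 0.19, adjusted p = 0.000951).

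Ccna2, cyclin A2, which acts in S phase and G2, read 1476 and 1541 in stage 1 NKT, 1817, 1494 and 2009 in Luxoid, and 932 and 716 in CD4SP. The groups did not overlap with CD4SP, and the gene was 1.85-fold and 2.15-fold higher (0.88 ± 0.19, adjusted p = 0.0181, and 1.11 ± 0.18, adjusted p = 0.00357). Without stage 1 NKT array 1 or 2 or CD4SP array 2 the former was not called (adjusted p up to 0.124). Aurka, the kinase of centrosome maturation, read 363 and 325, then 395, 352 and 370, and 134.5 and 119 in CD4SP. It had the smallest adjusted p-values of all members, at 2.71-fold (1.44 ± 0.15, adjusted p = 0.000461) and 2.94-fold (1.55 ± 0.14, adjusted p = 0.000154).

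Plk1, the polo-like kinase that acts from entry to exit, read 348 and 318 in stage 1 NKT, 380, 378 and 415 in Luxoid, and 222 and 168 in CD4SP. It was higher by 0.79 ± 0.17 (1.72-fold, adjusted p = 0.0179) and by 1.02 ± 0.16 (2.03-fold, adjusted p = 0.00293), the former not called without either stage 1 NKT array or without CD4SP array 2 (adjusted p up to 0.121). Foxm1, the transcription factor that activates many of these genes, was the exception in this group. Its brightest probe set (1417748_x_at) read 396 and 435.5, then 473, 411 and 472, and 308.5 and 359, with differences of 0.32 ± 0.16 (adjusted p = 0.222) and 0.44 ± 0.14 (adjusted p = 0.0742). The name ending _x_at marks probes that can match other transcripts. The probe sets kept for Cdc20, Incenp, Kif22 and Kif2c have this ending too. A dimmer probe set of Foxm1 (1448833_at) read 278 and 286, 298, 279 and 336, and 165 and 184, without overlap to CD4SP. With the mean of all probe sets Foxm1 was called in both comparisons (0.53, adjusted p = 0.0305, and 0.70, adjusted p = 0.0052).

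**Figure D2:**
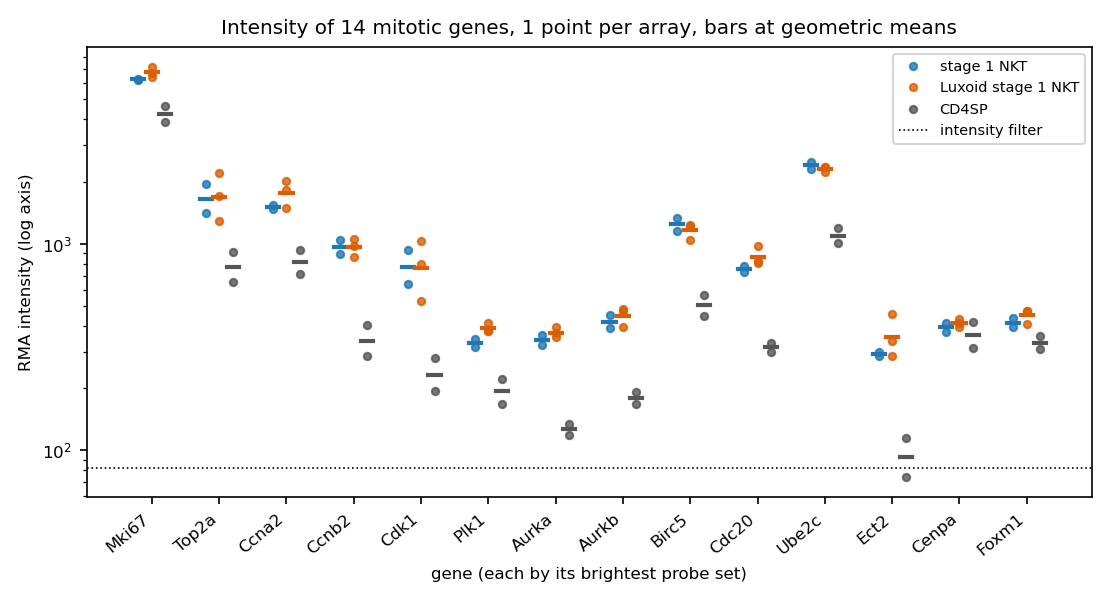
Intensity on a log axis of 14 genes, 1 point per array, with bars at the geometric mean of each group and the filter at 82 dotted; the brightness of different probe sets cannot be compared. For 13 of the genes every NKT point is above both CD4SP points, from Mki67 (6200 to 7145 against 3879 and 4624) to Ect2 (287 to 460 against 74.7 and 115), whereas for Cenpa they overlap; for Foxm1 the gap is narrow.

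All 4 members of the chromosomal passenger complex were called in both comparisons, with medians of 1.18 and 1.26. This complex corrects faulty attachments and later steers the cleavage furrow. Aurkb, its kinase, read 453 and 389 in stage 1 NKT, 396, 482.5 and 475 in Luxoid, and 193 and 167 in CD4SP. It was 2.34-fold and 2.50-fold higher (1.23 ± 0.17, adjusted p = 0.0022, and 1.32 ± 0.16, adjusted p = 0.000707). Birc5, survivin, which docks the complex to the centromere, read 1334 and 1158, then 1238, 1038 and 1220, and 568 and 448. The CD4SP arrays were again below every NKT array, at 2.47-fold (1.30 ± 0.18, adjusted p = 0.00204) and 2.30-fold (1.20 ± 0.16, adjusted p = 0.00147). Cdca8, borealin, read 3974 to 5035 in the NKT arrays and 1856 and 1877 in CD4SP. Incenp, the scaffold of the complex, had a smaller difference of 0.75 ± 0.16 (adjusted p = 0.0166) and 0.84 ± 0.15 (adjusted p = 0.00566). These values are those of its brightest probe set, 1439436_x_at. Dimmer ones that reached the filter gave 0.84 and 1.39 (1423092_at), 1.02 and 1.28 (1423093_at), and -0.07 and 0.03 (1441314_at).

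Of the 4 spindle checkpoint genes, which delay anaphase until chromosomes are attached, 3 were called in each comparison. Bub1, a checkpoint kinase, read 280 and 268 in stage 1 NKT, 336, 133 and 239.5 in Luxoid, and 118 and 75.3 in CD4SP. Luxoid array 2 lay close to CD4SP array 1. Bub1 was 2.91-fold higher in stage 1 NKT (1.54 ± 0.39, adjusted p = 0.0309) and 2.34-fold higher in Luxoid (1.23 ± 0.35, adjusted p = 0.0462). Fitting Luxoid and CD4SP alone ended the latter call (adjusted p = 0.0829), and leaving out either stage 1 NKT array was the same fit. The latter call was also lost without Luxoid array 1 or 3 or either CD4SP array. The former was lost without either stage 1 NKT or either CD4SP array, which leaves 1 array in a group. Over single arrays left out, the differences ran from 1.22 to 1.86 in stage 1 NKT and from 0.91 to 1.59 in Luxoid. Bub1b, which codes for the checkpoint protein BUBR1, and Mad2l1, coding for MAD2, were called as well, Mad2l1 at 637.5 to 742 in the NKT arrays against 327 and 317.5 in CD4SP. Ttk, the kinase MPS1, read 228 and 212, then 268, 97.8 and 279, and 115 and 99.9, so that Luxoid array 2 lay below CD4SP. It had the largest spread of any member among the Luxoid arrays (SD 0.86 on the log2 scale) and was not called (1.03 ± 0.44, adjusted p = 0.161, and 0.85 ± 0.40, adjusted p = 0.197). The stage 1 NKT arrays were both above CD4SP, and Ttk was called there when only these 2 groups were fitted (adjusted p = 0.00643) or Luxoid array 2 was left out (0.00292), an omission that also gave a call in Luxoid (0.000722).

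The 4 genes of anaphase and protein destruction were all called in both comparisons, with medians of 1.22 and 1.31. Cdc20, an activator of the anaphase-promoting complex, read 784.5 and 729 in stage 1 NKT, 824, 806 and 979 in Luxoid, and 330 and 300.6 in CD4SP. By this probe set (1439377_x_at) it was 2.40-fold and 2.75-fold higher (1.26 ± 0.16, adjusted p = 0.00133, and 1.46 ± 0.14, adjusted p = 0.000278). Dimmer probe sets of Cdc20 had smaller differences, 0.64 and 0.94 in 1416664_at and 0.75 and 0.89 in 1439394_x_at. Ube2c, the ubiquitin-conjugating enzyme of that complex, read 2309 and 2491, then 2361, 2222 and 2358, and 1006 and 1192. It was 2.19-fold and 2.11-fold higher (1.13 ± 0.15, adjusted p = 0.00179, and 1.08 ± 0.14, adjusted p = 0.0011). Cdc20 and Ube2c were called in every fit. Espl1, the separase that cuts cohesin, was at 319 to 571 in NKT arrays and at 198 and 141 in CD4SP, and Cdca3, a trigger of mitotic entry, at 779 to 808 against 347 and 310. With the mean of the probe sets Cdca3 was not called in stage 1 NKT, where its difference of 1.28 went to 0.24 (adjusted p = 0.231). That mean takes in 1448001_x_at, at 6.15 to 9.23 over all arrays, and 1448000_at, at 3.49 to 4.91. Neither reached the filter on dim genes, so the mean does not test the call of the brightest probe set.

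Of 6 centromere and kinetochore genes, 5 were called in each comparison. Cenpe, the kinetochore motor, read 1150 and 918 in stage 1 NKT, 1187, 1137 and 1506 in Luxoid, and 516 and 379 in CD4SP, and was 2.32-fold and 2.86-fold higher (1.22 ± 0.22, adjusted p = 0.00725, and 1.52 ± 0.20, adjusted p = 0.00121). The stage 1 NKT call was lost without its array 1 or without CD4SP array 2 (adjusted p up to 0.071). Cenpa, the histone H3 variant of centromeres, was not called by its brightest probe set (1444416_at), which read 415 and 376, then 415, 395 and 430, and 418 and 315. The groups overlapped, with differences of 0.12 ± 0.17 (adjusted p = 0.682) and 0.19 ± 0.16 (adjusted p = 0.475). The next probe set of Cenpa (1450842_a_at) read 484 and 471, then 535, 414 and 408, and 211 and 210, clearly apart from CD4SP. With the mean of its 3 probe sets Cenpa was called in both (0.60, adjusted p = 0.0168, and 0.69, adjusted p = 0.0049).

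Spindle genes and motors numbered 8, of which 6 were called in stage 1 NKT and 7 in Luxoid, with medians of 1.11 and 1.20. They include Kif11, the motor that pushes the spindle poles apart, at 1869 to 2560 in the NKT arrays against 1135 and 722 in CD4SP, and Tpx2, a spindle assembly factor, at 623 to 1108 against 382 and 334. Kif2c, a kinesin that takes microtubules apart, read 365 and 453 in stage 1 NKT, 412, 980 and 442.5 in Luxoid, and 225 and 122 in CD4SP. Luxoid array 2 stood well above every other array. Kif2c was called in Luxoid (3.41-fold, 1.77 ± 0.39, adjusted p = 0.0163; 0.158 without CD4SP array 2) and not in stage 1 NKT (1.30 ± 0.43, adjusted p = 0.0792), where the mean of its probe sets was called (1.02, adjusted p = 0.00315). Another probe set of Kif2c (1449060_at) read 315, 217 and 374 in the Luxoid arrays, with array 2 the lowest.

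Of 6 cytokinesis genes, which split the cell after anaphase, 4 were called in stage 1 NKT and 5 in Luxoid. Ect2, the exchange factor that activates RhoA at the cleavage furrow, read 287 and 299.5 in stage 1 NKT, 339.5, 287 and 460 in Luxoid, and 115 and 74.7 in CD4SP. It was 3.16-fold and 3.83-fold higher (1.66 ± 0.26, adjusted p = 0.00415, and 1.94 ± 0.24, adjusted p = 0.000936), and no omission of an array ended either call. Anln, anillin, a scaffold of the contractile ring, read 226 and 141, then 210, 117.5 and 221, and 87.4 and 47.3. Its array of lowest intensity in each group was array 2, and its differences were 1.47 ± 0.39 (adjusted p = 0.0372) and 1.45 ± 0.36 (adjusted p = 0.0256). The mean of its probe sets gave 0.76 (adjusted p = 0.173) and 0.78 (adjusted p = 0.123), so neither call held; single arrays left out raised the adjusted p to as much as 0.239, without stage 1 NKT array 1 or 2 or CD4SP array 2, and to 0.215, without Luxoid array 1 or 3 or CD4SP array 2.

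Kif20a, a kinesin of the central spindle, was at 1081 to 1771 in NKT arrays against 657 and 513 in CD4SP. Kif23, the motor of the centralspindlin complex, overlapped with CD4SP, at 921 and 813 in stage 1 NKT, 1063, 1040 and 1085 in Luxoid, and 888 and 618.5 in CD4SP. Its differences were 0.22 ± 0.19 (adjusted p = 0.475) and 0.52 ± 0.17 (adjusted p = 0.0774). Cit, the citron kinase of abscission, had the smallest called difference (0.50 ± 0.14, adjusted p = 0.044, and 0.46 ± 0.13, adjusted p = 0.0384). Its 3 Luxoid arrays were listed at the same value, 434.8, and both calls were lost whichever array was left out (adjusted p of 0.0503 to 0.209 and 0.0621 to 0.2).

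Loss of PLZF was addressed by Luxoid against stage 1 NKT, 2 groups that share the transgene and the sort. No member was called, with 0 of 40 higher and 0 lower by limma, against 0.901% and 0.653% of all tested genes. At an unadjusted p under 0.05 there was 1 member, Kif20a, whereas 11.6% of all tested genes passed this. The median log2 difference was 0.10 for the members and -0.03 for all tested genes, and 28 of 40 members were above 0. By the brightest probe sets, single differences ran from -0.31 in Bub1 to 0.47 in Kif2c. These values do not show that the groups are alike: the 95% intervals reached from -1.12 to 1.36 over all members, and for 37 of 40 they lay within a 2-fold change either way.

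Some intervals were narrow enough to bound the change. For Mki67 the difference was 0.11 with a 95% interval of -0.20 to 0.43 (adjusted p = 0.837), and for Ube2c it was -0.05 with an interval of -0.37 to 0.26. For Aurka it was 0.11 (-0.20 to 0.43), for Cdc20 0.20 (-0.13 to 0.53) and for Plk1 0.23 (-0.13 to 0.59). For others the interval was wide, as for Cdk1 at -0.02 (-0.71 to 0.66), Top2a at 0.03 (-0.55 to 0.61) and Bub1 at -0.31 (-1.12 to 0.49). Kif20a had the largest difference relative to its error: it read 1081 and 1128 in stage 1 NKT and 1326, 1370 and 1771 in Luxoid. All 3 Luxoid arrays were above both others, at 0.42 ± 0.18 (95% interval 0.01 to 0.82, limma adjusted p = 0.414).

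All Luxoid arrays lay above both stage 1 NKT arrays in 8 members, Mki67, Plk1, Cdc20, Cenpf, Kif20a, Kif23, Kif22 and Cdca8, and below both in 0. Of all tested genes, 10.1% and 16.6% showed these patterns. None of the 8 was called.

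**Figure D3:**
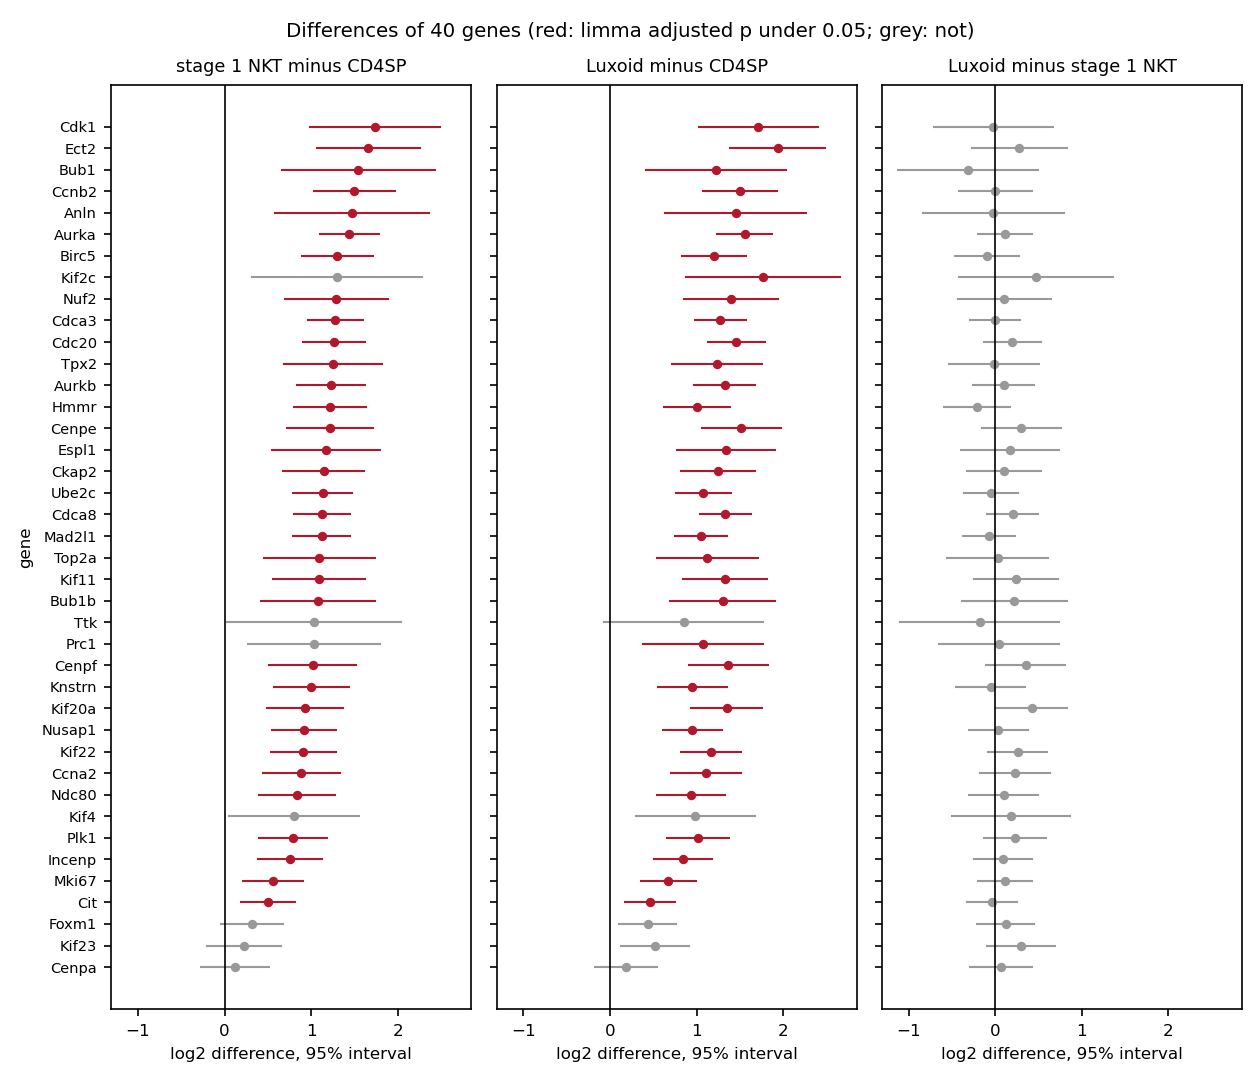
Log2 differences with 95% intervals of the 40 genes in the 3 comparisons, red where limma's adjusted p is under 0.05 and grey elsewhere. In the 2 panels against CD4SP 33 and 35 genes are red and all points lie above 0; in the panel of Luxoid against stage 1 NKT no gene is red and 39 intervals include 0.

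In each group 1 array was low in most members. CD4SP array 2 was the lower of its pair in 36 of 40 members (52.6% of all tested genes), stage 1 NKT array 2 in 29 of 40 (53.1%), and Luxoid array 2 was the lowest of 3 in 30 of 40 (35.6%). The median SD of the members was 0.26 on the log2 scale in CD4SP, 0.18 in Luxoid and 0.09 in stage 1 NKT, where that of all tested genes was 0.13, 0.18 and 0.13. The arrays numbered 1 had a mean log2 intensity of 3.13 to 3.32 over 3 Y-linked genes, compared with 8.25 to 9.57 in the others. With the Y-linked level as a covariate, 34 and 37 members were called above CD4SP. In the same fit 13.9% and 13.7% of all tested genes were called higher. The part of the Y-linked level in the spread was not tested. Between arrays of number 1 the members' median difference was 1.00 for stage 1 NKT against CD4SP and 1.09 for Luxoid, and between arrays of number 2 it was 1.14 and 1.08. For Luxoid against stage 1 NKT it was 0.13 and -0.01.

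Contaminating cell types were looked for by their marker genes. Fewer dividing cells and less RNA per dividing cell cannot be told apart in such bulk samples. Of 10 measured markers of double-positive thymocytes, an earlier stage with many dividing cells, Rag1, Rag2, Ptcra and Arpp21 were below 82 in every array. The summed intensity of the 10 was 1762 to 2259 in stage 1 NKT, 2139 to 2406 in Luxoid and 2547 to 2836 in CD4SP. Of the 10, 6 passed the filter and were tested. Among these limma called 0 higher and 3 lower in stage 1 NKT than in CD4SP, and 0 higher and 2 lower in Luxoid. Over all tested genes 10.8% and 11.3% were called higher and 4.08% and 5.51% lower. Cd8a was called higher in Luxoid than in stage 1 NKT, at 144, 184 and 152 against 82.3 and 93.6 (0.86 ± 0.16, adjusted p = 0.0342). All 5 erythroid markers were below 82 in every array, as was 1 of 4 B cell markers (summed 333 to 369, 302 to 412 and 292 to 303 in the same order), 5 of 7 myeloid or dendritic markers (1434 to 1679, 1099 to 1483 and 1136 to 1255) and 3 of 6 of thymic epithelium (592 to 671, 669 to 798 and 619 to 736). Of the B cell markers, Cd79b was called higher in both NKT groups than in CD4SP, at 138 to 211 against 66.2 and 43.0, and Cd79a was called lower, at 63.2 to 97.5 against 143 and 138.5. The part of these cell types in the results was not tested.

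Genes of other steps of the cell cycle gave the setting. Of 36 S phase and replication genes, 23 were higher in stage 1 NKT than in CD4SP and 25 in Luxoid, 0 were lower, and the medians were 0.77 and 0.81. With median centring 14 and 22 were called, and 12 were called in Luxoid without CD4SP array 2. In stage 1 NKT the count fell to 9 and 11 without its array 1 or 2, and to 14 and 7 without CD4SP array 1 or 2. Gins1, part of the replicative helicase, was higher by 1.54 ± 0.18 (adjusted p = 0.000767) and 1.43 ± 0.16 (adjusted p = 0.000551), and Uhrf1, which maintains DNA methylation, by 1.50 ± 0.20 (adjusted p = 0.00182) and 1.66 ± 0.18 (adjusted p = 0.000516). Cdc6, the origin licensing factor, was higher by 1.34 ± 0.20 (adjusted p = 0.00312) and 1.37 ± 0.18 (adjusted p = 0.00135).

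A further list of 40 tested genes of the spindle, cytokinesis and mitotic entry had 29 and 33 called higher and 0 lower, with medians of 0.90 and 1.07. In stage 1 NKT the count fell to 11 without either of its arrays, and to 18 and 13 without CD4SP array 1 or 2; in Luxoid it fell to 20 without CD4SP array 2. Cep55, which recruits the abscission machinery, read 644 and 678 in stage 1 NKT, 731, 742 and 758 in Luxoid, and 172 and 160 in CD4SP. It was 3.98-fold and 4.48-fold higher (1.99 ± 0.14, adjusted p = 5.86e-05, and 2.16 ± 0.13, adjusted p = 1.64e-05). Cdc25b, the phosphatase that activates CDK1, was 3.46-fold and 4.21-fold higher, and Wee1, the kinase that restrains CDK1, 3.46-fold and 3.79-fold, so activator and inhibitor were both raised. Of 37 condensin and kinetochore genes 16 and 18 were higher, led by Ncapg2 of condensin II (1.60 ± 0.22, adjusted p = 0.00204, and 1.70 ± 0.20, adjusted p = 0.000707). Smc4, a condensin core subunit, was lower in stage 1 NKT (-0.59 ± 0.14, adjusted p = 0.0247), a call lost without any 1 of the stage 1 NKT or CD4SP arrays (adjusted p up to 0.122). The higher condensin and kinetochore genes fell to 5 and 9 in stage 1 NKT without its array 1 or 2, and to 5 without CD4SP array 2; in Luxoid they fell to 8 without CD4SP array 2.

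The anaphase-promoting complex itself, whose subunits are present through the cell cycle, had 1 and 3 of 17 genes called higher and 0 lower. Over all tested genes 10.8% and 11.3% were called higher, and the complex had medians of 0.32 and 0.22. Its inhibitor Fbxo5, EMI1, was the gene called in stage 1 NKT (0.97 ± 0.21, adjusted p = 0.0159) and was also called in Luxoid (1.01 ± 0.19, adjusted p = 0.00734). Leaving out any 1 of the stage 1 NKT or CD4SP arrays ended the former call (adjusted p up to 0.11), and leaving out CD4SP array 2 the latter (0.0778). In stage 1 NKT the count of the complex ranged from 0 to 4, with 0 in those 4 fits and 4 with the replicate block. In Luxoid it fell from 3 to 1 with the mean of probe sets, quantile normalization again or median centring, and without Luxoid array 2, Luxoid array 3 or CD4SP array 1, and to 0 without CD4SP array 2. Cdc27 and Anapc15, subunits called in Luxoid, lost their calls in 7 and 11 of 18 settings.

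Of 17 tested regulators in the DREAM and G2/M transcription list, 3 were higher in stage 1 NKT and 5 in Luxoid, with 0 lower. Over all tested genes 10.8% and 11.3% were called higher and 4.08% and 5.51% lower. With all arrays kept, the settings gave 1 to 5 and 2 to 6 of the list higher. The list's median was 0.11 in stage 1 NKT, against 0.06 over all tested genes, and turned to -0.09 with median centring. E2f8, an E2F that represses in late S phase, was higher by 1.30 ± 0.19 (adjusted p = 0.00304) and 1.49 ± 0.18 (adjusted p = 0.000707). Mybl2, B-MYB, read 100 and 131 in stage 1 NKT, 99.9, 126 and 161 in Luxoid, and 72.0 and 40.1 in CD4SP. It was higher by 1.09 ± 0.31 (adjusted p = 0.0484) and 1.23 ± 0.28 (adjusted p = 0.0193). The former call was lost in 7 of 17 settings (adjusted p up to 0.273): with no filter, quantile normalization again, median centring or the Y-linked covariate, and without either stage 1 NKT array or CD4SP array 2. The latter was lost in 3, with the replicate block and without Luxoid array 3 or CD4SP array 2 (up to 0.163). Lin54, the DREAM subunit that binds the CHR, was not called (-0.19 ± 0.19, adjusted p = 0.539, and -0.09 ± 0.17, adjusted p = 0.773).

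Of 18 tested G1 cyclins, CDK inhibitors and quiescence genes, 4 were higher and 2 lower in stage 1 NKT than in CD4SP, and 3 higher and 4 lower in Luxoid. Over all tested genes 10.8% and 11.3% were called higher and 4.08% and 5.51% lower. With median centring 6 of the list were lower in each, beside 8.21% and 9.28% of all tested genes. Cdk6, a G1 kinase, was higher by 1.35 ± 0.17 (adjusted p = 0.0012) and 1.03 ± 0.15 (adjusted p = 0.00222). Cdkn2c, an inhibitor of that kinase, was also higher (1.06 ± 0.17, adjusted p = 0.00443, and 0.84 ± 0.15, adjusted p = 0.00701), as was Tob1, an antiproliferative gene of resting T cells (1.32 ± 0.20, adjusted p = 0.00373, and 1.04 ± 0.19, adjusted p = 0.00596). Foxp1, a keeper of T cell quiescence, read 1809 and 1528 in stage 1 NKT, 2185, 2355 and 1907 in Luxoid, and 3401 and 4051 in CD4SP. It was lower by -1.16 ± 0.17 (adjusted p = 0.00343) and -0.79 ± 0.16 (adjusted p = 0.0108), and the antiproliferative Btg1 by -0.87 ± 0.14 (adjusted p = 0.00527) and -0.59 ± 0.13 (adjusted p = 0.0169). Without CD4SP array 2 the Luxoid calls of Tob1 (adjusted p = 0.0605), Foxp1 (0.103) and Btg1 (0.106) were lost, as was that of Btg1 without CD4SP array 1, that of Cdkn2c without CD4SP array 1 (0.0693) and the stage 1 NKT call of Btg1 without stage 1 NKT array 1 (0.0517).

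The inhibitor genes Cdkn1a, Cdkn1b and Cdkn2d and the cyclin gene Ccnd2 were not called in either comparison. Cdkn1b, p27, had differences of -0.37 ± 0.18 (adjusted p = 0.215) and -0.41 ± 0.17 (adjusted p = 0.137). Ccnd3, cyclin D3, was called lower in Luxoid only (-0.78 ± 0.17, adjusted p = 0.0148; -0.41 ± 0.19, adjusted p = 0.186 in stage 1 NKT), and for Luxoid against stage 1 NKT its difference was -0.37 (-0.76 to 0.01, adjusted p = 0.45). The Luxoid call was lost without either CD4SP array (adjusted p up to 0.112). In that comparison limma called 0 genes of these 6 lists in either direction. The lists are described by counts beside the shares of all tested genes given above, and no list was tested as a set.

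**Figure D4:**
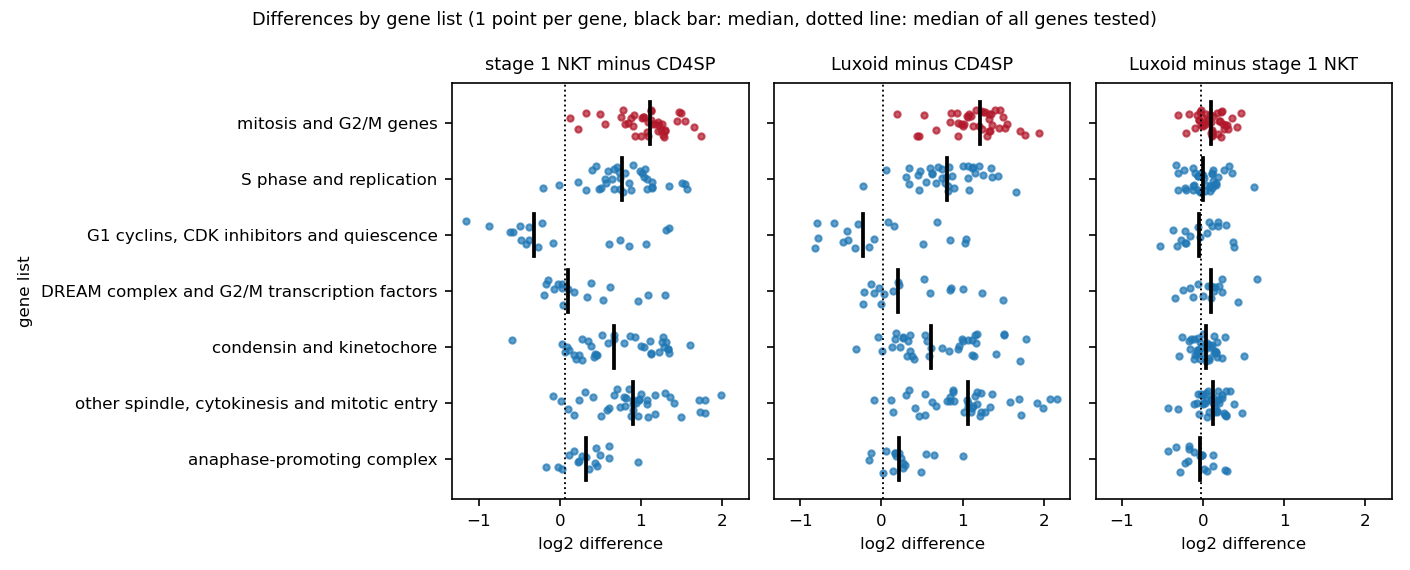
Each point is a gene's log2 difference in 1 of the 3 comparisons, by list, with the list median as a black bar and the median of all tested genes dotted. Against CD4SP the mitosis and G2/M genes have medians of 1.11 and 1.22, S phase genes 0.77 and 0.81, and G1 and quiescence genes -0.32 and -0.22; for Luxoid against stage 1 NKT the medians of the 7 lists lie between -0.05 and 0.12.

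Probe sets other than the brightest were available for 26 members. Of 53 such probe sets, 43 were higher in stage 1 NKT than in CD4SP and 50 in Luxoid. Among the 43 that reached the filter these were 39 and 42, with medians of 0.81 and 1.01. Those opposite in sign in stage 1 NKT were 1 probe set each of Bub1b, Cit, Incenp and Knstrn. For Luxoid against stage 1 NKT, 46 of the 53 were above 0, with a median of 0.11. Of the 53, 20 were opposite in sign to the brightest probe set of their gene. The differences of all 53 ran from -0.44 ± 0.22 in Hmmr (1425815_a_at) to 0.55 ± 0.20 in Cit (1426028_a_at), with Incenp (1423092_at) at 0.54 ± 0.15. This range is wider than that of the brightest probe sets.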

How the data were processed

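Mouse Genome 430 2.0 Affymetrix arrays of 7 samples were used, made from RNA amplified and labelled as biotin cDNA per the labels' protocols. The deposited values are intensity on a linear scale (3.08 to 20875), made with RMA in Affymetrix Expression Console per the submitters' processing notes, whose versions the sources used here do not give. RMA adjusts background, equalises array distributions and summarises probes, which compresses differences of dim probe sets. Log2 values had been assumed in the design, so log2 was taken first. Of 45037 probe sets 34945 had 1 gene symbol, 932 several and 9160 were not listed; 34741 matched RefSeq by gene ID and 0 symbols changed. For each of 18193 genes the probe set of highest mean was kept, and 10874 genes at 82 or above in 2 arrays were tested.

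Using limma 3.58.1 (lmFit, eBayes) under R 4.3.3, group means were fitted jointly to the 7 arrays (4 residual and 4.49 prior degrees of freedom), 3 contrasts were taken and p-values adjusted by Benjamini-Hochberg, with 0.05 as threshold. The fit was tested on simulated data. SE is that of limma, two-sided. The labels call samples biological replicates of pooled mice, and p-values measure the spread between these samples.

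Members, gene lists, tests and the rule for named genes (core members, the 6 largest called differences per comparison and direction, up to 4 called genes per list, and a set of regulators and sort markers) were chosen with earlier results of these data known. A few others are named for exceptions, chosen after their values were seen.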

Additional observations from a re-analysis of the deposited data

How the results depend on the processing

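The settings tried were no filter, a stricter filter at 173, the mean of probe sets, quantile normalization again, median centring, a trended prior, array weights, fits of 2 groups only, the Y-linked level as a covariate, a replicate block, and leaving out each array. No member was called in Luxoid against stage 1 NKT in any of 18 fits (median 0.04 to 0.21), and 0 called results reversed; the uncalled differences of Cenpa (-0.08 and -0.02) and, in stage 1 NKT, Kif23 (-0.04) turned negative against CD4SP without CD4SP array 2. With all arrays kept, 27 to 35 members were higher in stage 1 NKT than in CD4SP and 32 to 37 in Luxoid. Over all tested genes the shares called higher in these fits were 6.04% to 17.0% and 6.37% to 13.9%. Of the members, 26 and 31 were called in every such fit. The median for stage 1 NKT moved from 1.11 to 0.89 with the mean of probe sets. Leaving out a stage 1 NKT or CD4SP array leaves a group of 1 array. For the other 2 groups that fit equals the one of these groups only, so the 18 fits are not all distinct. Leaving out single arrays gave 12 to 35 and 19 to 36 members, and medians of 0.90 to 1.29 and 1.02 to 1.36. Outside such fits, Mki67 in stage 1 NKT was not called with median centring (adjusted p = 0.138) or 2 groups only (0.0561), nor Top2a with centring (0.0517). With the replicate number as a block, 0, 35 and 36 members were called (Prc1 was gained in stage 1 NKT at adjusted p = 0.00477, and Kif4 in both at 0.0329 and 0.0244) and the medians were 0.06, 1.11 and 1.15, while calls over all genes rose from 1621 to 2616 in stage 1 NKT and from 1831 to 2299 in Luxoid against CD4SP. In the block fit 17.0% and 13.9% of all tested genes were called higher than in CD4SP. Same-numbered arrays deviated together (0.33 to 0.49), but the labels give them no shared source and each comparison has only 2 such pairs. In a group of 2 arrays the deviations from the group mean mirror each other, so these pairs are not independent. The 2 pairs of stage 1 NKT with CD4SP give the same value, 0.43, by construction. The number of arrays limits the precision, 2 groups hold 2 arrays, and dim probe sets are compressed.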
